A study of Mus musculus with 8 samples.

Results

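MRX-2843 tumor was compared with vehicle tumor by RNA-seq read counts per gene in a mouse model of supratentorial ependymoma that carries a Zfta-Rela fusion. The comparison took every library labelled as RELA tumor, 2 under MRX-2843 and 2 under vehicle, of 8 libraries in all. Of 55414 genes listed, enough counts for a test were present for 24356. The other 4 libraries, from naive brain under the same treatments, were used to estimate the spread and as values set beside the tumor results.

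MRX-2843 is an oral small molecule that inhibits 2 receptor kinases, MERTK and FLT3. Tumor-bearing mice, found by MRI, were randomised to vehicle or to MRX-2843 at 50 mg/kg by gavage, given daily for 5 days, and were killed 1 h after the last dose. Every library, those of vehicle and naive brain included, is labelled with the genotype ZFTA-RELAfusion and with the drug's name as its cell line. The labels give no age or strain, and no promoter that drives the fusion is named there. The 2 libraries of a group are called duplicates, and nothing says that they came from separate animals, so p-values may measure only technical spread. A number before the column names is 909 for both MRX-2843 tumor libraries and 914 for both vehicle tumor libraries, and in naive brain 909 for MRX-2843 and 914 or 915 for vehicle. Its meaning is not explained, and the treatment cannot be told apart from it.

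ZFTA-RELA tumors arise from neural progenitors of the forebrain and carry a chimeric NF-kB factor in the nucleus. MERTK, AXL and TYRO3 are the TAM receptors, which bind the bridging ligands GAS6 and PROS1, let macrophages and microglia clear dying cells, and damp interferon and NF-kB signalling in them. FLT3 binds FLT3L and drives early blood cells and dendritic cells.

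Before any gene is considered, the libraries labelled MRX-2843 tumor stood nearer to naive brain than to vehicle tumor. Across 14162 genes, which are not independent replicates, Pearson's r of log2 CPM (counts scaled to TMM-adjusted library totals) was 0.957 to 0.967 between MRX-2843 tumor and naive libraries. It was 0.559 to 0.567 between MRX-2843 tumor and vehicle tumor, and 0.991 or 0.992 within each tumor pair. The vehicle tumor libraries held 75631963 and 78084664 counts, and the MRX-2843 tumor libraries 58668926 and 60745017. Mitochondrially encoded genes took 3.26 and 3.37% of the total under vehicle, 17.3 and 16.4% under MRX-2843, and 14.7 to 18.5% in naive brain. The 50 most abundant genes took 16.8 to 16.9% of the total under vehicle and 29.8 to 30.9% under MRX-2843. The fusion partner Zfta stood at 287 and 289.9 CPM in the vehicle tumor libraries and 54.3 and 57 in the MRX-2843 tumor libraries, beside means of 48.6 and 33.1 in vehicle and MRX-2843 naive brain. Its partner Rela fell from 84.9 and 86.3 to 28.4 and 32.1 CPM (-1.50 ± 0.10, adjusted p = 3e-09). It is not known if fusion reads were assigned to Zfta or Rela. Xist and the Y-linked Ddx3y, given with the naive brain values, differed by treatment in both tissues. Sex, as these genes mark it, therefore cannot be told apart from treatment for any gene tested, sex-linked or not. In bulk tissue, fewer cells of a type and less RNA per cell cannot be told apart. The part that sex, the tissue sampled, the share of normal brain in it or the number in the column names had in the results below was not tested.

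Immune, matrix and cell cycle genes were lower in MRX-2843 tumor, and genes of neurons, myelin and mitochondria were higher. Of the genes tested, 14715 (60.4%) passed edgeR's quasi-likelihood test at 0.05 after Benjamini-Hochberg adjustment, which is what "rose" and "fell" mean throughout. Of these, 7450 (30.6%) rose and 7265 (29.8%) fell, and 9706 (39.9%) also differed by at least 1 log2 unit. The median absolute log2 fold change of the called genes was 1.61, and the median over all genes tested was 0.03. The 2 groups' libraries did not overlap for 80.9% of genes, so that a lack of overlap alone sets no gene apart. Scaling to library totals in place of TMM moved the median of all genes by -0.21, and all changes below are relative to the TMM scale.

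**Figure D1:**
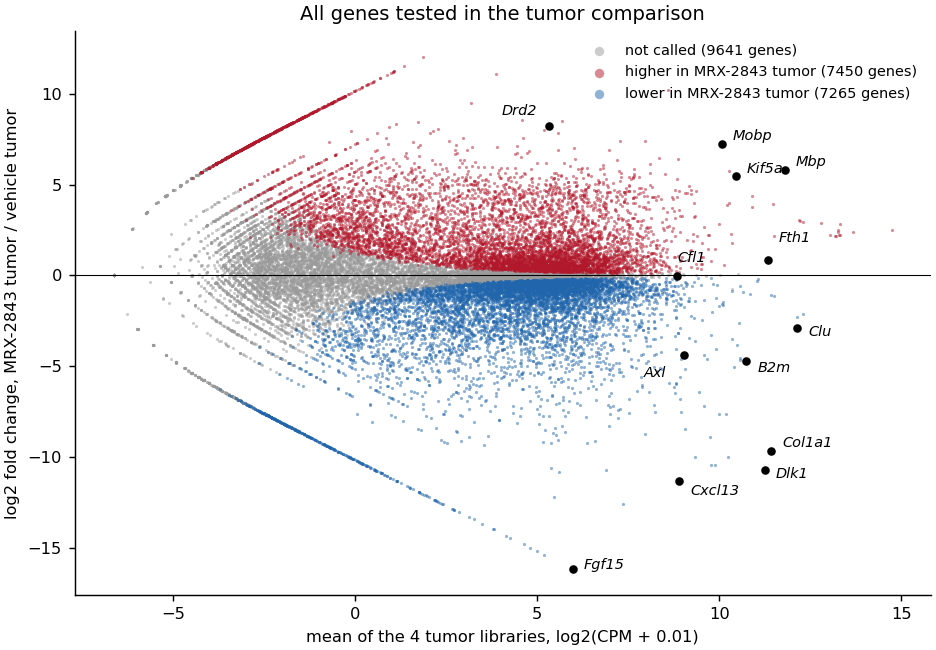
Each point is 1 of the 24356 genes tested, with the mean of the 4 tumor libraries as log2(CPM + 0.01) across and the log2 fold change of MRX-2843 tumor over vehicle tumor upwards. The 7450 genes that rose are red, the 7265 that fell are blue, and 13 named genes are marked in black. The bent lines at the left and at the lower edge are genes with few or no counts in 1 of the groups.

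The largest falls by fold were of genes with almost no counts under MRX-2843. Cxcl13, the chemokine that draws B cells, had 945 and 968 CPM in the vehicle tumor libraries and 0.211 and 0.540 in the MRX-2843 tumor libraries (log2 fold change -11.30 ± 0.20 SE, adjusted p = 7.5e-16). Tnnt3, a troponin of fast skeletal muscle, had 326 and 329 CPM under vehicle and 0.0703 and 0.0337 under MRX-2843 (-12.58 ± 0.32, adjusted p = 4.6e-14). In both, each vehicle library lay far above each MRX-2843 library, but the rule that picked these falls required no overlap. The matrix protease gene Mmp3 had 28.2 and 26.7 CPM under vehicle and no counts in MRX-2843 tumor or in naive brain, which makes it at least 1062-fold lower with the MRX-2843 pair set at 3 counts in all. The glucagon receptor gene Gcgr also had no counts in MRX-2843 tumor, from 23.2 and 21.3 CPM, at least 862-fold lower. Fgf15, Fgf4, Hmx1, Mc2r, Ms4a4c and Vax2 complete the 10 largest falls, all with no counts under MRX-2843.

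The largest rises by fold were led by genes of striatal projection neurons. Drd1, the D1 dopamine receptor gene, had 0.0694 and 0.431 CPM under vehicle and 49.3 and 47.4 in MRX-2843 tumor (7.58 ± 0.29, adjusted p = 6.2e-12). Scn4b, a sodium channel subunit gene, went from 1.71 and 1.97 to 304 and 317 CPM (7.39 ± 0.09, adjusted p = 2.7e-17), and Ryr3, of an intracellular calcium release channel, from 0.428 and 0.386 to 101 and 89.4 (7.86 ± 0.13, adjusted p = 5.3e-16). All MRX-2843 libraries lay above all vehicle libraries in these genes, as the rule that picked them required. Drd2, Gpr6, Syndig1l, Ccdc187, Tac1, Penk and the myelin gene Mobp were the other 7.

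By CPM, the 10 largest falls were of Apoe, Clu, Ckb, Col1a1, Dlk1, B2m, H2-D1, H2-K1, C4b and Gsn. Clu, a secreted chaperone, fell from 7902 and 8037 to 1047 and 1065 CPM (-2.92 ± 0.04, adjusted p = 4.6e-17), beside naive means of 957 and 921. Ckb, the brain creatine kinase, fell from 7637 and 7492 to 1436 and 1607 CPM (-2.31 ± 0.05, adjusted p = 1.1e-14), and Gsn, which severs actin filaments, from 2926 and 2941 to 127 and 129 (-4.52 ± 0.06, adjusted p = 5.6e-17). In each, both vehicle libraries stood above both MRX-2843 libraries, as the rule that picked them required. The largest rises included Mbp, Meg3, Kif5a, Snhg11, Camk2a, Mobp, Camk2n1, Slc1a2 and Fth1. Kif5a, a neuronal kinesin that carries cargo along axons, rose from 59.6 and 65.6 to 2744 and 2799.7 CPM (5.47 ± 0.05, adjusted p = 8.6e-18), and the noncoding Snhg11 from 44.5 and 46 to 2448 and 2390.1 (5.74 ± 0.05, adjusted p = 1.6e-18). Fth1, of the iron store ferritin, rose by less than 1 log2 unit, from 1892 and 1842 to 3262 and 3356 CPM (0.83 ± 0.03, adjusted p = 1.3e-11).

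**Figure D2:**
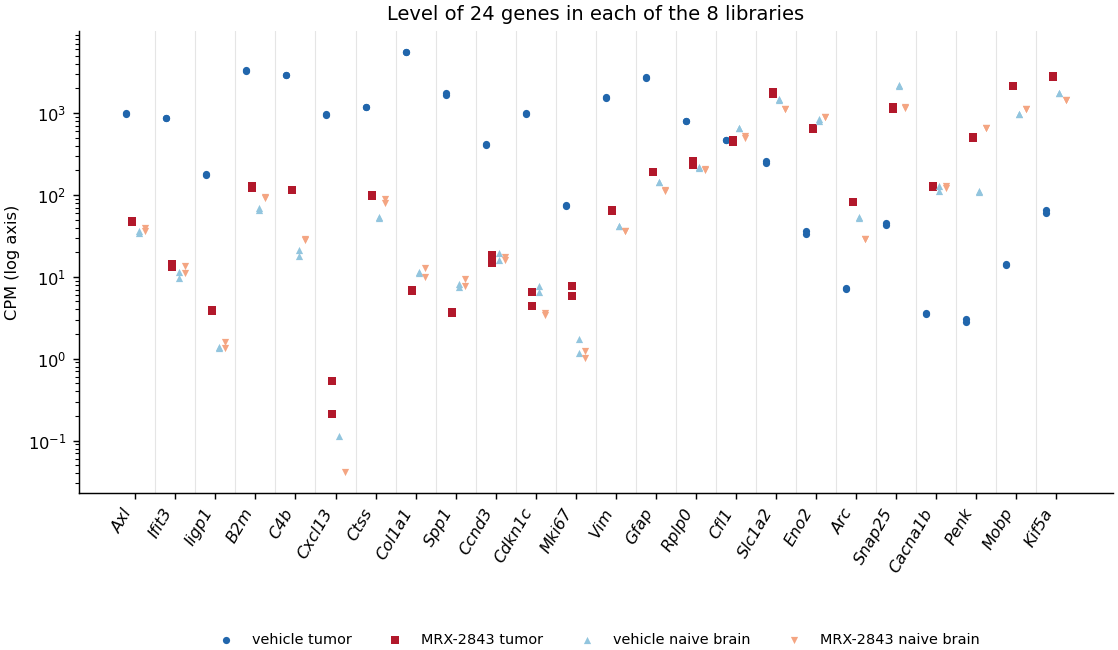
Level of 24 genes in each of the 8 libraries, in CPM on a log axis, 1 point a library. Both vehicle tumor libraries stand apart from the other 6 in every gene but Cfl1; 1 naive library of each treatment had no counts for Cxcl13 and is not drawn.

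Among the receptors that MRX-2843 targets and their relatives, a large fall of Axl stood beside small changes in the targets themselves. Mertk had 55.7 and 64.8 CPM under vehicle and 51.3 and 50.9 in MRX-2843 tumor (-0.24 ± 0.09, adjusted p = 0.037), and Flt3 had 3.47 and 5.34 under vehicle and 7.21 and 8.31 under MRX-2843 (0.82 ± 0.21, adjusted p = 0.0038). The call of Mertk was lost without vehicle tumor replicate 2 (-0.13), MRX-2843 tumor replicate 1 (-0.25) or MRX-2843 tumor replicate 2 (-0.25), and that of Flt3 without vehicle tumor replicate 1 (0.53). Axl fell from 983 and 999.7 to 46.6 and 48.4 CPM (-4.38 ± 0.06), while Tyro3 rose from 154 and 153 to 259.9 and 252 (0.74 ± 0.05). Of the ligands, Gas6 fell from 135 and 143 to 78.5 and 89.1 CPM (-0.73 ± 0.09, adjusted p = 2.4e-06), Pros1 from 117 and 117 to 11 and 12.2 (-3.33 ± 0.11) and Flt3l from 30.8 and 34.6 to 4.29 and 3.61 (-3.05 ± 0.16). All 3 ligand genes were thus lower in both MRX-2843 libraries than in either vehicle library.

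Of 29 other receptor tyrosine kinase genes 6 rose and 19 fell, with a median of -1.43. Ephb2, an ephrin receptor, fell from 127 and 134 to 8.65 and 7.66 CPM (adjusted p = 7.1e-13) and Fgfr1, an FGF receptor, from 462 and 463 to 58.4 and 66.9 (-2.88 ± 0.07, adjusted p = 2e-14). Csf1r, the receptor that keeps microglia alive, fell from 557 and 578 to 109 and 109 CPM (-2.38 ± 0.06), and its ligand gene Csf1 from 177 and 181 to 30.3 and 30.5 (-2.56 ± 0.07, adjusted p = 1e-13). The other CSF1R ligand gene, Il34, which neurons make, rose from 26.8 and 26.3 to 40.4 and 41.1 CPM (0.62 ± 0.08, adjusted p = 1.2e-05). The risers included the neurotrophin receptor genes Ntrk3, from 31.2 and 32.5 to 141 and 132 CPM (2.10 ± 0.07), and Ntrk2, from 234 and 240.5 to 431 and 420.2 (0.84 ± 0.05).

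Of 25 growth factor genes 6 rose and 15 fell (median -0.66). Mdk, of the heparin-binding factor midkine, fell from 471 and 449.9 to 20.2 and 26.5 CPM (-4.30 ± 0.10, adjusted p = 2e-14), and the imprinted Igf2 from 191 and 196 to 0.211 and 0.472 (-9.13 ± 0.16, adjusted p = 1e-15). Vegfa, the main inducer of vessel growth, was at 98.2 and 91.1 CPM under vehicle and 92.1 and 104 under MRX-2843 (0.05 ± 0.07, adjusted p = 0.58), with groups that overlapped. The neuronal factor genes Nrg3, from 0.624 and 1.20 to 17.8 and 17.8 CPM (4.28 ± 0.22), and Fgf12, from 3.84 and 3.18 to 50.3 and 46.3 (3.78 ± 0.10), rose.

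Genes of both interferon lists, the antiviral genes and the interferon-gamma inducible GTPases, fell. Interferons act through STAT and IRF factors, which bind a response element upstream of antiviral genes. To show that element in the genes that changed, RefSeq promoters (GRCm38.p6, 250 bases before to 50 after the gene start) were searched on both strands for GAAANNGAAA, overlapping matches included. The 3 promoters printed are those of the antiviral list that hold the letters and have the highest CPM in vehicle tumor. Capitals mark every base in a match on either strand. Ifit3, which blocks translation of viral RNA, lies on chr19:34583279-34583578 on the plus strand and holds 2 matches, starting 156 and 122 bases before the gene start. Bst2, which tethers virus particles to the cell surface, lies on chr8:71537423-71537722 on the minus strand and holds 2 overlapping matches, 130 and 124 bases before the start. Isg15, a ubiquitin-like protein, lies on chr4:156200769-156201068 on the minus strand and holds 3, at 78, 72 and 66 bases before the start.
Ifit3: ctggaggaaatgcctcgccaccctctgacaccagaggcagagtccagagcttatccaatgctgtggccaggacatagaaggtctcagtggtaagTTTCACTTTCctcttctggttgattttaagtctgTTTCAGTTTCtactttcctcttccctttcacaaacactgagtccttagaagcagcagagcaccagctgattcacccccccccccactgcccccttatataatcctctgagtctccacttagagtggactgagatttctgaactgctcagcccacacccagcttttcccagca
Bst2: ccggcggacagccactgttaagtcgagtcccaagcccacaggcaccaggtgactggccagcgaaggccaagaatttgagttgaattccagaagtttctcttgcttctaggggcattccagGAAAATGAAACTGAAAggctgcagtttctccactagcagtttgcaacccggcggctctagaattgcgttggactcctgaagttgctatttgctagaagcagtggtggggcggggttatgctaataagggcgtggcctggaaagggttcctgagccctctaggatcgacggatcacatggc
Isg15: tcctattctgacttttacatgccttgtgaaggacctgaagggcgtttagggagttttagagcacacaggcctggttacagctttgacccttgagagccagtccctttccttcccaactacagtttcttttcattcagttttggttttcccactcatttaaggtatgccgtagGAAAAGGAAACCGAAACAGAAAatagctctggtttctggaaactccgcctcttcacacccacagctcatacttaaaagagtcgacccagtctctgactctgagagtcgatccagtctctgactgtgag

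The 3 genes so printed fell together. Ifit3 had 877 and 883 CPM in the vehicle tumor libraries and 14.4 and 13.2 in the MRX-2843 tumor libraries (-5.99 ± 0.10, adjusted p = 5.5e-16). Bst2 went from 430.2 and 410.2 to 4.54 and 5.75 CPM (-6.35 ± 0.13, adjusted p = 4e-15) and Isg15 from 360.5 and 367 to 2.11 and 1.65 (-7.60 ± 0.15, adjusted p = 3.6e-15). In all 3 the vehicle libraries stood far above the MRX-2843 libraries. Naive means of Isg15 were 1.67 and 2.08 CPM under vehicle and MRX-2843. The letters were in 9 of 16 antiviral promoters with an entry (56.2%), in 9 of 9 promoters of the interferon-gamma inducible GTPases, and in 3.49% of all 27025 promoters. They were in 1 of 16 mitosis promoters (6.25%) and 0 of 16 of DNA replication. Of MHC class I and II promoters 2 of 13 held them (15.4%), of synaptic vesicle promoters 1 of 14 (7.14%) and of oligodendrocyte promoters 0 of 10. A match is a description of these letters and says nothing of a factor's binding.

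All 22 antiviral genes measured fell, with a median of -6.38. Oasl1, of the 2',5'-oligoadenylate synthetase family, went from 84.5 and 81.3 to 0.0352 and 0.236 CPM (-9.22 ± 0.30, adjusted p = 7e-13), the largest fall of the list. Rtp4, which restrains viral replication, fell from 164 and 169 to 2.13 and 2.34 CPM (-6.22 ± 0.10, adjusted p = 5.4e-16). The factors of the response itself fell by less, Irf9 from 182 and 180.1 to 18.7 and 17.6 CPM (-3.32 ± 0.08) and Stat2 from 211 and 208 to 41.4 and 39.2 (-2.38 ± 0.07). Of the interferon-gamma inducible GTPases, which attack the vacuoles of intracellular parasites, 14 of 14 fell (median -4.56). Iigp1 fell from 175 and 182 to 3.87 and 3.98 CPM (-5.51 ± 0.10, adjusted p = 9.9e-16) and Gbp3 from 257 and 265 to 8.35 and 8.52 (-4.95 ± 0.08, adjusted p = 3.8e-16). Summed over the 14 genes, the level was 1977 and 2064 CPM in the vehicle tumor libraries, 82.1 and 77.5 in MRX-2843 tumor, and 38.7 to 50.3 in naive brain. The MRX-2843 tumor libraries were thus lower than vehicle tumor and above all 4 naive libraries in this sum.

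Antigen presentation genes fell in 18 of 18 cases (median -4.06). Their summed level was 12008 and 11936 CPM in the vehicle tumor libraries, 519.9 and 532 in MRX-2843 tumor and 275 to 388 in naive brain. Class I and class II genes both fell. Tap1, the peptide transporter, went from 256 and 258 to 6.93 and 8.28 CPM (-5.08 ± 0.10) and H2-Ab1, a class II chain, from 193 and 181 to 9.71 and 10.5 (-4.21 ± 0.12). Tapbp, which loads peptides onto class I molecules, went from 598 and 573 to 29.1 and 28.4 CPM (-4.35 ± 0.07, adjusted p = 5.1e-16). The class II activator Ciita, low in all libraries, fell from 6.29 and 6.26 to 1.79 and 1.94 CPM (-1.75 ± 0.32, adjusted p = 0.00021).

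All 15 complement genes fell (median -4.67). C4b, the central component of the classical pathway, fell from 2906 and 2955 to 115 and 116 CPM (-4.67 ± 0.07, adjusted p = 1.3e-16), Serping1, the inhibitor of C1, from 193 and 201 to 6.70 and 5.60 (-5.00 ± 0.11, adjusted p = 7.6e-15), and C1qa from 811 and 785 to 77.9 and 78 (-3.36 ± 0.06, adjusted p = 5.7e-16). These 3 genes were lower in both MRX-2843 libraries, with no overlap between groups. Of 17 chemokine genes 16 fell and 1 rose (median -4.66). Ccl12, which recruits monocytes, fell from 66.5 and 62.5 to 0.598 and 0.675 CPM (-6.66 ± 0.21, adjusted p = 7.6e-13) and Cxcl10, which recruits T cells, from 53.4 and 57.2 to 0.316 and 0.607 (-6.89 ± 0.30, adjusted p = 2.5e-11). The riser was Cx3cl1, the chemokine that neurons display to microglia, from 73.6 and 76.6 to 468 and 484 CPM (2.66 ± 0.05, adjusted p = 2.3e-15). Of 20 NF-kB subunits, inhibitors and targets 19 fell (median -2.86). Nfkb1, the p50 subunit gene, fell from 94.6 and 96.6 to 20.9 and 22.8 CPM (-2.13 ± 0.09, adjusted p = 2.4e-11), Bcl3, a nuclear cofactor of p50 and p52, from 49 and 46.3 to 0.738 and 0.506 (-6.26 ± 0.30, adjusted p = 8.9e-11), and Irf1 from 117 and 117 to 7.53 and 6.73 (-4.03 ± 0.14, adjusted p = 1.9e-12). Tnf, low in counts, was lower by about the list's median but not called, at 1.34 and 2.19 CPM under vehicle and 0.141 and 0.337 under MRX-2843 (-2.87 ± 1.19, adjusted p = 0.05029).

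**Figure D3:**
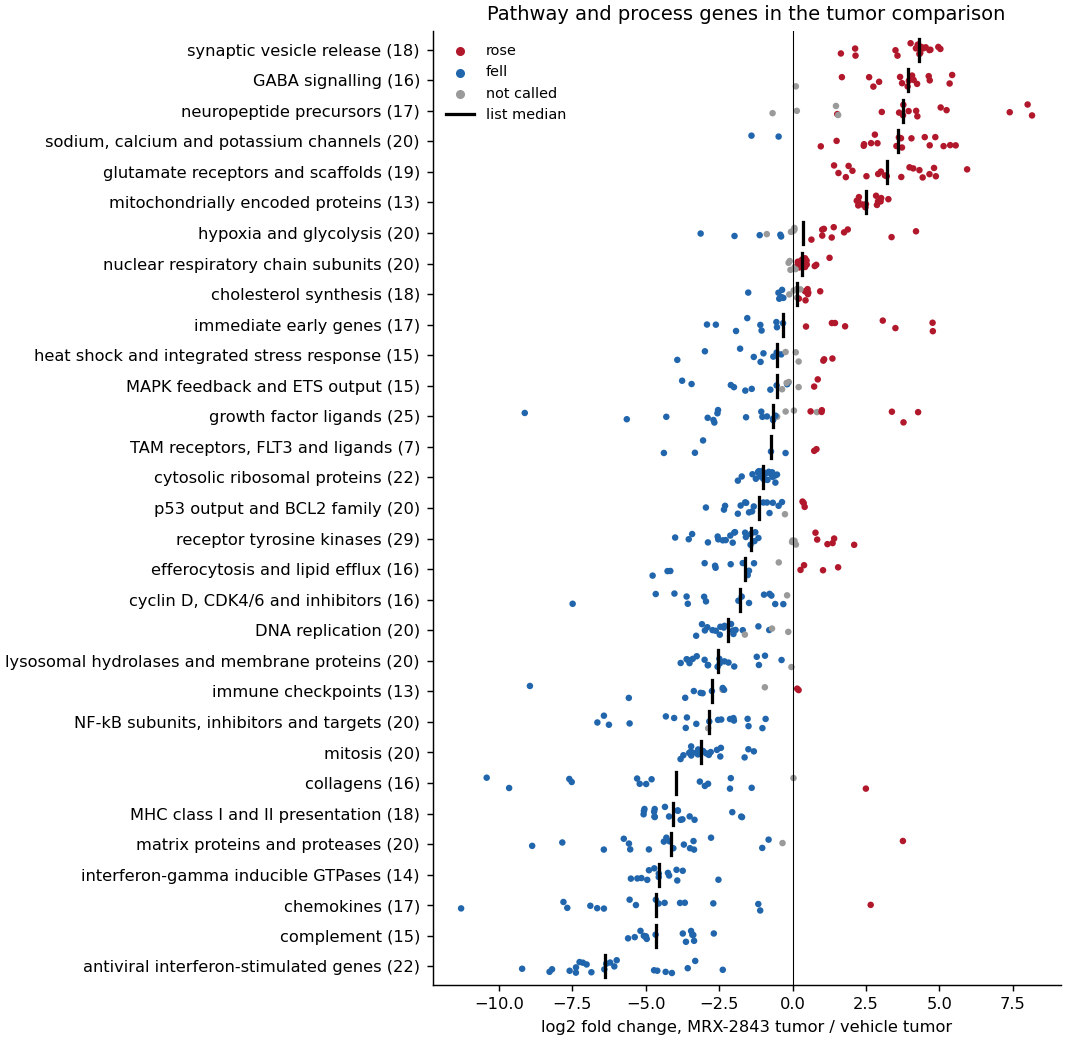
Log2 fold change of MRX-2843 tumor over vehicle tumor for the tested members of 31 lists of pathways and processes, ordered by median. Each point is 1 gene, red where it rose, blue where it fell and grey where it was not called; the black bar is the list's median, and the number tested is in brackets.

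Genes of resident and recruited phagocytes fell with them. All 12 homeostatic microglia genes (median -2.09), all 14 genes of disease-associated microglia (median -2.73) and 11 of 12 macrophage and monocyte genes (median -3.09) fell. P2ry12, the nucleotide receptor that marks resting microglia, fell least of the homeostatic genes, from 67.9 and 68.6 to 34.7 and 37.2 CPM (-0.92 ± 0.08, adjusted p = 1.6e-07). Olfml3 fell from 263 and 257 to 26.3 and 27.2 CPM (-3.28 ± 0.08, adjusted p = 1.7e-14). Ccr2, the receptor by which blood monocytes enter tissue, fell from 9.87 and 9.33 to 0.281 and 0.438 CPM (-4.73 ± 0.44, adjusted p = 2e-07). The summed level of homeostatic genes was 2487 and 2540 CPM in the vehicle tumor libraries, 457 and 474 in MRX-2843 tumor and 341 to 359 in naive brain. That of macrophage genes was 353 and 358 CPM in the vehicle tumor libraries, 31.1 and 32.2 in MRX-2843 tumor, and 29.3 to 32.3 in naive brain, so that the MRX-2843 tumor libraries lay within the naive range.

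Of 20 lysosomal genes, abundant in phagocytes, 19 fell (median -2.52). Ctss, a cathepsin that trims antigens, fell from 1202 and 1201 to 98.7 and 98.2 CPM (-3.61 ± 0.06, adjusted p = 4e-16), Ctsd, a general protease of the lysosome, from 1573 and 1621 to 164 and 169 (-3.26 ± 0.05, adjusted p = 4e-16), and Lgmn from 855 and 867 to 118 and 115 (-2.89 ± 0.05, adjusted p = 8.9e-16). The exception was Npc1, the cholesterol exporter, at 61.3 and 64.5 CPM under vehicle and 62.9 and 59.7 under MRX-2843, with overlapping groups. Of 16 genes of dead cell clearance, in which TAM receptors take part, and of lipid efflux, 11 fell and 4 rose (median -1.61). Lrp1, an engulfment receptor, fell from 2510.0 and 2615 to 402 and 431 CPM (-2.62 ± 0.05, adjusted p = 2.7e-15), and Apoe, the main lipid carrier of brain, from 8593 and 7944 to 1798 and 2040.2 (-2.11 ± 0.06, adjusted p = 8.5e-14). Elmo1, part of the motor of engulfment, rose from 34.5 and 42.3 to 82.5 and 75.5 CPM (1.04 ± 0.09, adjusted p = 5.9e-08), and so did the low Pparg, from 1.64 and 1.43 to 5.05 and 3.98 (1.55 ± 0.30).

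Most lymphocyte genes fell, with Cd4 as an exception. Of 14 T and NK cell genes 11 fell and 1 rose. Their median was -6.21, or -5.79 with genes at 0 set at 3 counts. Of the T cell receptor complex, Cd3e had 1.72 and 1.66 CPM and Cd3d 1.94 and 1.61 under vehicle. Neither had counts in MRX-2843 tumor, where 0 counts allow up to 0.0528 and 0.0506 CPM. Gzmb, a granzyme of killer cells, went from 4.97 and 4.84 to 0.0352 and 0 CPM (adjusted p = 3e-06). Cd4 went the other way, from 2.20 and 2.54 to 26.2 and 30.5 CPM (3.58 ± 0.17, adjusted p = 5.8e-11), beside naive means of 2.85 under vehicle and 16.5 under MRX-2843 (2.53 between them, adjusted p = 4e-08). Cd4 was thus higher under MRX-2843 in both tissues, with Cd3e and Cd3d at 0 counts in MRX-2843 tumor. Of 7 B and plasma cell genes 6 fell (median -3.62), among them Jchain, which joins antibody units, from 16.9 and 14.7 to 1.58 and 0.826 CPM (-3.72 ± 0.30). Ighm, of the same list, fell by less, from 44.7 and 41.4 to 30.0 and 32.3 CPM (-0.47 ± 0.11, adjusted p = 0.0019). Its naive means were 14.8 CPM under vehicle and 14.5 under MRX-2843. Only 3 of 8 neutrophil genes could be tested, and 1 fell, S100a8, from 0.509 and 0.227 CPM to no counts (adjusted p = 0.03), a call lost without vehicle tumor replicate 1, MRX-2843 tumor replicate 1 or MRX-2843 tumor replicate 2.

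Of 13 immune checkpoint genes 9 fell and 2 rose (median -2.75). Lgals9, a ligand of TIM-3, fell from 446 and 465 to 9.74 and 9.31 CPM (-5.58 ± 0.12, adjusted p = 9.7e-15), Lag3 from 99.8 and 97.7 to 11.6 and 10.9 (-3.13 ± 0.10, adjusted p = 4.8e-13), Vsir from 182 and 188 to 34.2 and 39.2 (-2.33 ± 0.08), and Cd274, which encodes PD-L1, from 20.7 and 22.6 to 2.04 and 1.40 (-3.66 ± 0.23). All 4 were lower in both MRX-2843 libraries. The "do not eat me" pair Cd47 and Sirpa rose by 0.21 ± 0.05 and 0.16 ± 0.06, which library totals turned to -0.02 and -0.06, neither of them called. The call of Sirpa was also lost without vehicle tumor replicate 1 or either MRX-2843 tumor library.

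Matrix genes took some of the largest falls. Of 16 collagen genes 14 fell and 1 rose (median -3.98). Col3a1, a fibrillar collagen, fell from 1743 and 1761 to 0.949 and 1.59 CPM (-10.42 ± 0.14, adjusted p = 9.1e-17), and Col1a2 from 2312 and 2349 to 11.7 and 12.2 (-7.61 ± 0.06, adjusted p = 2.3e-18). Collagen VI genes parted: Col6a3 fell from 242 and 260.4 to 7.03 and 6.54 CPM (-5.21 ± 0.10), while Col6a1 was at 379 and 387 under vehicle and 385 and 398 under MRX-2843 (0.03 ± 0.05, adjusted p = 0.58). The riser was Col25a1, a membrane collagen of neurons, from 4.98 and 4.23 to 24.8 and 27.3 CPM (2.50 ± 0.11, adjusted p = 2.2e-11). Of 20 matrix protein and protease genes 18 fell (median -4.13). Spp1, which encodes osteopontin, went from 1664 and 1738 to 3.57 and 3.68 CPM (-8.87 ± 0.10), Sparc from 2393 and 2433 to 207 and 221 (-3.49 ± 0.05, adjusted p = 9.1e-17) and Fn1, fibronectin, from 835 and 870.1 to 51.3 and 50.8 (-4.06 ± 0.06, adjusted p = 1.1e-16). Mmp12, a macrophage elastase, was the single riser, at 0.0463 and 0.113 CPM under vehicle and 1.34 and 0.877 under MRX-2843 (adjusted p = 0.049), a call that ended with library totals and on leaving out any 1 of the 4 tumor libraries.

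Vessel genes mostly fell, with a smaller median. Of 12 endothelial genes 11 fell (median -1.40), Cldn5, of the blood-brain barrier junction, from 175 and 156 to 30.3 and 30.2 CPM (-2.45 ± 0.09, adjusted p = 6.3e-12) and Cdh5 from 60.9 and 60.9 to 11.5 and 11.5 (-2.41 ± 0.11, adjusted p = 5.1e-11). The barrier transporter gene Slco1a4 fell only from 62.9 and 68.4 to 57.6 and 52.8 CPM (-0.25 ± 0.07), and Flt1, a VEGF receptor gene, was not called, at 55.9 and 61.4 under vehicle and 59.4 and 56.6 under MRX-2843. Of 12 pericyte, smooth muscle and fibroblast genes 7 fell and 1 rose (median -1.24). Within them the fibroblast genes fell, Lum from 289 and 299 to 1.48 and 1.08 CPM (-7.85 ± 0.13, adjusted p = 6.5e-16) and Dcn from 250.7 and 259 to 4.57 and 4.89 (-5.75 ± 0.10, adjusted p = 1.1e-15). The pericyte genes Rgs5, at 111 and 121 CPM under vehicle and 110.5 and 94.6 under MRX-2843, and Kcnj8, at 3.42 and 3.37 under vehicle and 4.96 and 3.61 under MRX-2843, were not called. Abcc9, a further pericyte gene, rose by 0.49 ± 0.16 (adjusted p = 0.015). Its call was lost with library totals (0.26) and without vehicle tumor replicate 1 (0.32) or MRX-2843 tumor replicate 2 (0.40). Pericyte genes did not all hold their level. Cspg4, listed both here and with oligodendrocyte precursors, fell from 178 and 179 to 23.5 and 22.2 CPM (-2.96 ± 0.08, adjusted p = 5.2e-14).

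Mitosis genes fell, and their sum stayed above that of naive brain. All 20 mitosis genes fell (median -3.11), and their summed level was 492 and 496 CPM in the vehicle tumor libraries, 72.8 and 66.2 in MRX-2843 tumor and 30.0 to 32.5 in naive brain. Mki67, the marker of dividing cells, had 74.3 and 75.1 CPM under vehicle and 7.74 and 5.84 in MRX-2843 tumor, beside naive means of 1.46 and 1.13. Foxm1, the factor that turns on mitotic genes, fell from 26.7 and 26.2 to 3.06 and 3.81 CPM (-2.95 ± 0.19, adjusted p = 2.3e-09) and Tpx2, a spindle factor, from 38.6 and 38.1 to 6.65 and 4.45 (-2.79 ± 0.18, adjusted p = 3e-09). Of 20 DNA replication genes 17 fell (median -2.21), among them the helicase subunits Mcm3 (-2.73 ± 0.14) and Mcm6 (-2.62 ± 0.14). CCAAT, a sequence bound by NF-Y and common in mitotic promoters, was on either strand in 13 of 16 mitosis promoters (81.2%), 12 of 16 replication promoters (75%), 1 of 14 synaptic vesicle promoters (7.14%) and 37.9% of all promoters. It was also in 10 of 13 MHC class I and II promoters (76.9%), 6 of 16 antiviral promoters (37.5%), 3 of 10 oligodendrocyte promoters (30%) and 2 of 9 promoters of the interferon-gamma inducible GTPases (22.2%).

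Of 16 genes of the cyclin D, CDK4/6 and inhibitor axis 15 fell (median -1.79), drivers and brakes alike. Ccnd3, a D-type cyclin, fell from 412 and 424 to 14.6 and 18.4 CPM (-4.66 ± 0.12, adjusted p = 3.6e-14), beside -4.02 ± 0.09 for Ccnd1 and -0.78 ± 0.06 for Ccnd2. Cdkn1c, an imprinted CDK inhibitor gene, fell from 986 and 989 to 4.43 and 6.49 CPM (-7.49 ± 0.13, adjusted p = 6e-16), the largest fall of the list, and Cdkn2c, an inhibitor of CDK4 and CDK6, from 45.9 and 50.0 to 5.70 and 6.17 (-3.01 ± 0.14). E2f1 was the exception, at 15.1 and 14.4 CPM under vehicle and 13.8 and 12.2 under MRX-2843 (-0.18 ± 0.14, adjusted p = 0.28). Of 20 genes of p53 output and the BCL2 family 16 fell and 3 rose (median -1.16). Trp53 itself fell from 98.3 and 98.7 to 30.8 and 27.1 CPM (-1.77 ± 0.08, adjusted p = 7.3e-11). Mcl1, which blocks apoptosis, fell from 156 and 160.3 to 51.7 and 51.8 CPM (-1.61 ± 0.06, adjusted p = 9.4e-12), and Bak1, which executes it, from 49.2 and 50.8 to 9.30 and 10.5 (-2.34 ± 0.12, adjusted p = 1.2e-10). Bcl2l1, which encodes the survival protein BCL-XL, rose from 74.5 and 75.3 to 97.9 and 102 CPM (0.41 ± 0.06, adjusted p = 4e-05).

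Of 15 genes of MAPK feedback and ETS output, often read as a gauge of receptor signalling, 9 fell and 2 rose (median -0.54). Spry4, a feedback inhibitor, fell from 78.4 and 77.3 to 4.68 and 6.78 CPM (-3.76 ± 0.17, adjusted p = 4.2e-11), its relative Spry1 from 72.4 and 79.1 to 6.52 and 7.42 (-3.44 ± 0.14, adjusted p = 9.1e-12), and the ETS factor gene Etv5 from 237 and 248 to 63.5 and 58.2 (adjusted p = 6.3e-11). These 3 were lower in both MRX-2843 libraries, whereas Spred1, an inhibitor of the same pathway, was at 110.4 and 115 CPM under vehicle and 106 and 101 under MRX-2843 (-0.13 ± 0.06, adjusted p = 0.1). Spred2 rose from 29.8 and 33.1 to 50.8 and 54.1 CPM (0.74 ± 0.08, adjusted p = 1.9e-06) and Dusp5 from 3.27 and 3.43 to 6.40 and 5.77 (0.86 ± 0.23, adjusted p = 0.005). In naive brain 7 of the 15 were called lower under MRX-2843 and 0 higher (median -0.45), against 11.7% and 9.78% of all genes. Etv5 was lower there by -1.09 ± 0.09.

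Genes of translation and of respiration moved apart. All 22 cytosolic ribosomal protein genes of the list, which does not hold Rplp1, fell (median -1.002), Rpl18 from 482 and 451 to 121 and 136 CPM (-1.86 ± 0.07, adjusted p = 2e-12) and Rplp0 from 806 and 810.0 to 229 and 258 (-1.73 ± 0.06, adjusted p = 1e-12). Summed, they had 10178 and 9899 CPM in the vehicle tumor libraries, 4992 and 5154 in MRX-2843 tumor and 4983 to 5866 in naive brain. All 13 mitochondrially encoded protein genes rose (median 2.50), mt-Nd2, of complex I, from 1003 and 1071 to 8681 and 8171 CPM (3.02 ± 0.04). Of 20 respiratory chain genes of the nucleus 15 rose and none fell (median 0.31), or 9 rose and 4 fell with library totals (median 0.09). Cox8a rose from 165 and 172 to 393 and 417 CPM (1.26 ± 0.05, adjusted p = 9.2e-12) and Cox4i1 from 264 and 250.1 to 443 and 458 (0.81 ± 0.05, adjusted p = 1.2e-09), both with no overlap.

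Glycolytic isozymes moved unequally. Of 20 hypoxia and glycolysis genes 10 rose and 5 fell (median 0.35), or 10 and 9 with library totals. Eno2, the enolase of neurons, rose from 36.1 and 33.7 to 637 and 654 CPM (4.21 ± 0.06, adjusted p = 7.2e-17), while Eno1, the enolase of most cells, was at 505 and 504 under vehicle and 523 and 533 under MRX-2843 (0.06 ± 0.05, adjusted p = 0.24). Ldhb rose from 105 and 109 to 356 and 369 CPM (1.76 ± 0.05, adjusted p = 1.5e-13) and Ldha, the other lactate dehydrogenase subunit, fell from 383 and 380.1 to 175 and 177 (-1.12 ± 0.06, adjusted p = 4.3e-10). The neuronal glucose transporter gene Slc2a3 rose from 9.50 and 8.25 to 93.9 and 90.5 CPM (3.38 ± 0.09, adjusted p = 4.5e-14). Hk2, the hexokinase of many tumors, fell from 29 and 30.7 to 3.20 and 3.61 CPM (-3.13 ± 0.18, adjusted p = 6.5e-10), with Hk1 at 236 and 232 under vehicle and 232 and 248 under MRX-2843 (0.04 ± 0.06, not called). The hypoxia marker Car9 was low and not called, at 2.38 and 2.73 CPM under vehicle and 1.76 and 1.03 under MRX-2843.

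Cholesterol synthesis and stress lists were mixed. Of 18 cholesterol genes 7 rose and 6 fell (median 0.16), or 5 and 7 with library totals (median -0.07). Hmgcs1 rose from 103 and 100.03 to 149 and 141 CPM (0.51 ± 0.06, adjusted p = 2.8e-06) and Lss from 23.6 and 24.8 to 47 and 46.1 (0.94 ± 0.09), while Sqle, a squalene epoxidase, fell from 57.4 and 55.9 to 41.8 and 39.4 (-0.48 ± 0.08, adjusted p = 0.00013). Of 15 heat shock and stress response genes 3 rose and 9 fell (median -0.54). The chaperone genes Hsp90aa1, from 219 and 221 to 463 and 448 CPM (1.05 ± 0.05), and Hsph1, from 54 and 50.3 to 135 and 132 (1.36 ± 0.06), rose. Hspa5, the chaperone of the endoplasmic reticulum, fell from 392 and 416 to 119 and 116 CPM (-1.79 ± 0.06, adjusted p = 2.7e-12) and the stress pseudokinase gene Trib3 from 14.2 and 18 to 0.914 and 1.20 (-3.93 ± 0.32).

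Genes of synapses rose as a group. All 18 genes of vesicle release (median 4.31), all 19 of glutamate receptors and scaffolds (median 3.21) and 15 of 16 measured genes of GABA signalling (median 3.95) rose. Rims1, of the presynaptic active zone, rose from 4.80 and 4.83 to 155 and 162 CPM (5.04 ± 0.08, adjusted p = 2.6e-16) and Cplx2, which clamps vesicles before release, from 44.2 and 43.5 to 994 and 1045 (4.54 ± 0.05, adjusted p = 1.9e-17). Shank1, a scaffold under the synapse, rose from 16.5 and 14.9 to 428 and 463 CPM (4.82 ± 0.07, adjusted p = 1.6e-16). Gabbr2, of the metabotropic GABA receptor, rose from 6.61 and 6.47 to 128 and 120.3 CPM (4.25 ± 0.07, adjusted p = 5.5e-16) and Gabrd, of receptors outside synapses, from 1.57 and 2.17 to 80.3 and 82.6 (5.44 ± 0.12, adjusted p = 9.3e-15). Gabra3 did not follow, at 49.8 and 51.7 CPM under vehicle and 55.9 and 53.9 under MRX-2843 (0.11 ± 0.07, adjusted p = 0.16). Summed vesicle genes had 565 and 579 CPM in the vehicle tumor libraries, 6882 and 6973 in MRX-2843 tumor, 10998 and 10878 in naive brain under vehicle and 7261 and 7106 there under MRX-2843. The MRX-2843 tumor libraries thus stood below all naive libraries in this sum.

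Of 20 ion channel genes 18 rose and 2 fell (median 3.58). Cacna1b, of N-type calcium channels, rose from 3.50 and 3.61 to 128 and 124 CPM (5.15 ± 0.09, adjusted p = 7.4e-16) and Scn8a, of an axonal sodium channel, from 8.36 and 7.88 to 233 and 241 (4.87 ± 0.07, adjusted p = 1.1e-16). Both were low in vehicle tumor. Kcnj10, the potassium channel of glia, fell from 201 and 206 to 154 and 139 CPM (-0.47 ± 0.06, adjusted p = 6.2e-06). Of 12 neuron markers 11 rose (median 3.66), Stmn2 from 9.53 and 9.18 to 156 and 154 CPM (4.05 ± 0.06, adjusted p = 3.1e-16) and the neurofilament gene Nefl from 4.42 and 4.67 to 111 and 110.2 (4.61 ± 0.07). Rbfox3, which encodes NeuN, stood apart, at 208 and 206 CPM under vehicle and 179 and 186 in MRX-2843 tumor (-0.18 ± 0.05, adjusted p = 0.0077). Its fall was small, and its call was lost without MRX-2843 tumor replicate 1 (-0.16).

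Immediate early genes, which neuronal activity and growth factors both induce, split, 8 up and 9 down (median -0.32). Risers included Arc, of the synapse, from 7.24 and 7.15 to 81.5 and 82.1 CPM (3.51 ± 0.08, adjusted p = 2.6e-14), Egr3 from 6.96 and 6.51 to 57.6 and 56.1 (3.08 ± 0.10, adjusted p = 7.1e-13) and Npas4 from 0.833 and 0.840 to 21.7 and 24.1 (4.77 ± 0.16, adjusted p = 1.1e-12). Fos fell from 29.2 and 29.6 to 6.98 and 8.50 CPM (-1.93 ± 0.14, adjusted p = 1e-08), the stress factor gene Atf3 from 8.67 and 6.67 to 0.985 and 1.05 (-2.92 ± 0.35) and Ier2 from 32.4 and 33.7 to 4.75 and 6.04 (-2.61 ± 0.16). In naive brain 11.7% of all genes were called lower under MRX-2843 and 9.78% higher. There 14 of the 17 were lower and none higher (median -0.66), Arc by -0.88 ± 0.08. The interaction of treatment and tissue, a test of the difference between the tissues' fold changes, was called for 15 of the 17, against 51.6% of all genes.

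Markers of brain regions did not move alike. Of 14 genes of striatal medium spiny neurons 13 rose (median 6.28) and of 14 genes of cortical excitatory neurons 12 rose and 1 fell (median 3.15). Rgs9, a striatal regulator of dopamine signalling, rose from 3.32 and 3.17 to 215 and 229 CPM (6.10 ± 0.08, adjusted p = 6.2e-17) and Pde10a, a phosphodiesterase of the same cells, from 7.17 and 7.27 to 307 and 308 (5.41 ± 0.07, adjusted p = 7.8e-17). Neurod2, a factor of cortical projection neurons, rose from 2.29 and 1.86 to 58.5 and 62.8 CPM (4.87 ± 0.13, adjusted p = 9.1e-14) and Lamp5 from 4.78 and 6.16 to 90.5 and 91.5 (4.06 ± 0.10, adjusted p = 4.4e-14). Nrn1, a growth-promoting surface protein, fell from 97.4 and 93.5 to 30.2 and 29.7 CPM (-1.67 ± 0.09, adjusted p = 3.2e-10). In naive brain the 2 lists went opposite ways: 13 of 14 striatal genes were higher under MRX-2843 (median 2.28) and 12 of 14 cortical genes lower (median -2.21). Summed striatal genes had 2964 and 3111 CPM in MRX-2843 tumor, 3206 and 3145 in naive brain under MRX-2843, 783.8 and 790.1 in naive brain under vehicle, and 85.7 and 89.1 in the vehicle tumor libraries. Summed cortical genes had 1428 and 1490 CPM in MRX-2843 tumor, 577 and 564 in naive brain under MRX-2843, and 2696 and 2688 there under vehicle. The treatment groups of naive brain thus differed in regional markers, and the part of that in the tumor comparison was not tested.

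Of 17 neuropeptide genes 13 rose (median 3.78). Penk, the enkephalin precursor gene of striatal neurons, rose from 2.82 and 3.07 to 493 and 506 CPM (7.40 ± 0.07, adjusted p = 6.4e-18) and Sst, the somatostatin gene of interneurons, from 5.00 and 5.43 to 183 and 215 (5.25 ± 0.09, adjusted p = 5.7e-16). In naive brain 11 of the 17 were called higher under MRX-2843 and 4 lower (median 1.82), against 9.78% and 11.7% of all genes. Penk means there were 109.8 CPM under vehicle and 653 under MRX-2843. The hypothalamic genes Hcrt and Pmch stayed at or under 0.231 CPM in all 4 tumor libraries. Of 10 interneuron genes 8 rose and 1 fell (median 2.54): Vip rose from 1.43 and 1.41 to 18.9 and 20.1 CPM (3.78 ± 0.15), Reln from 5.48 and 6.48 to 45.5 and 43.1 (2.89 ± 0.13), and Nos1, of the neuronal nitric oxide synthase, fell from 45.1 and 53.4 to 30.2 and 29.4 (-0.72 ± 0.10, adjusted p = 1.3e-05). Of 15 measured genes of hypothalamic, thalamic and cerebellar neurons 3 rose and 5 fell (median 0.18, or -0.04 with library totals). Prkcd, found in thalamic neurons, fell from 113.1 and 117 to 12.1 and 16.5 CPM (-3.01 ± 0.12) and Zic1 from 77.1 and 78 to 13.4 and 15.1 (-2.45 ± 0.11), while Calb1, a calcium buffer gene, rose from 4.12 and 3.40 to 120.1 and 105 (4.91 ± 0.10).

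**Figure D4:**
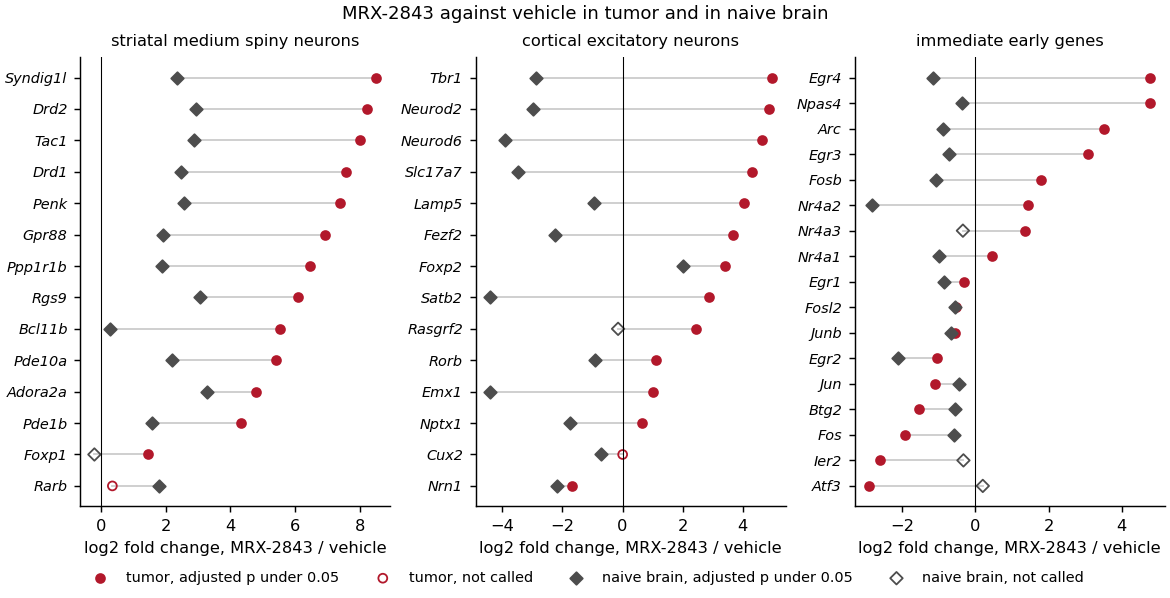
Log2 fold change of MRX-2843 over vehicle in tumor (red circles) and in naive brain (grey diamonds) for the members of 3 lists, filled where the adjusted p was under 0.05. Striatal genes lie right of 0 in both tissues for all but Foxp1, most cortical genes lie on opposite sides, and immediate early genes spread to both sides in tumor while none was called higher in naive brain.

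Glial genes split by stage and type. All 12 genes of myelinating oligodendrocytes rose (median 4.53). Mobp, a myelin protein gene, rose from 14.1 and 14.2 to 2125 and 2157 CPM (7.24 ± 0.05, adjusted p = 5.2e-19) and the myelin basic protein gene Mbp from 125 and 126 to 6753 and 7302 (5.81 ± 0.05, adjusted p = 1.6e-18). Summed, the 12 genes had 547 and 568 CPM in the vehicle tumor libraries, 14735 and 15173 in MRX-2843 tumor and 7704 to 7832 in naive brain. The MRX-2843 tumor libraries were thus above all naive libraries. Of 9 precursor genes 5 fell and 3 rose (median -0.40). Cspg4, which encodes NG2, fell from 178 and 179 to 23.5 and 22.2 CPM (-2.96 ± 0.08, adjusted p = 5.2e-14) and Sox10 from 447 and 457 to 75.4 and 84.2 (-2.50 ± 0.07, adjusted p = 1.9e-13). Bcas1 and Gpr17, which mark cells on the way to myelination, rose from 48.4 and 53.4 to 267 and 287 CPM (2.44 ± 0.07, adjusted p = 9.8e-14) and from 12 and 12.1 to 49.4 and 48 (2.02 ± 0.10, adjusted p = 6.9e-11).

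Of 12 astrocyte genes 7 rose and 3 fell (median 0.38). The filament gene Gfap fell from 2676 and 2735 to 189 and 190.5 CPM (-3.83 ± 0.04, adjusted p = 2.6e-17) and the calcium-binding S100b from 302 and 302 to 132 and 126 (-1.23 ± 0.05, adjusted p = 2.6e-11). Slc1a2, the main glutamate transporter, rose from 246 and 258 to 1819 and 1722 CPM (2.81 ± 0.04, adjusted p = 3.6e-16) and Aldoc from 331 and 324 to 846 and 886 (1.41 ± 0.04, adjusted p = 3.9e-13). Of 13 genes of radial glia and progenitors 7 fell and 3 rose (median -0.83). Vim, an intermediate filament gene, fell from 1529 and 1566 to 64.7 and 64.2 CPM (-4.59 ± 0.05, adjusted p = 2.1e-17) and Nes, nestin, from 97.6 and 101 to 12.6 and 14.6 (-2.87 ± 0.13, adjusted p = 3.3e-11). The risers were the neuroblast genes Dcx, from 3.26 and 2.29 to 33.7 and 31 CPM (3.54 ± 0.15), and Dlx2, from 0.416 and 0.340 to 10.6 and 13.6 (4.99 ± 0.26), and the Notch target gene Hes5, from 1.06 and 1.27 to 9.07 and 10.8 (3.09 ± 0.21).

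Of 12 ependymal genes 11 rose (median 2.53), all low in CPM. Tekt1, of the ciliary axoneme, rose from 0.358 and 0.431 to 4.27 and 3.61 CPM (3.31 ± 0.35, adjusted p = 8.7e-07). Ak7, absent from the counts under vehicle, had 4.04 and 3.17 CPM in MRX-2843 tumor, at least 209.5-fold higher with the vehicle pair set at 3 counts in all. Of 9 choroid plexus genes 2 rose and 2 fell (median 0.09). Aqp1, a water channel gene, fell from 165 and 165 to 0.176 and 0.371 CPM (-9.22 ± 0.23, adjusted p = 3.3e-14), while Ttr, the transthyretin gene by which choroid plexus is known, rose from 1.48 and 1.58 to 7.70 and 5.90 (2.15 ± 0.30, adjusted p = 1.7e-05).

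**Figure D5:**
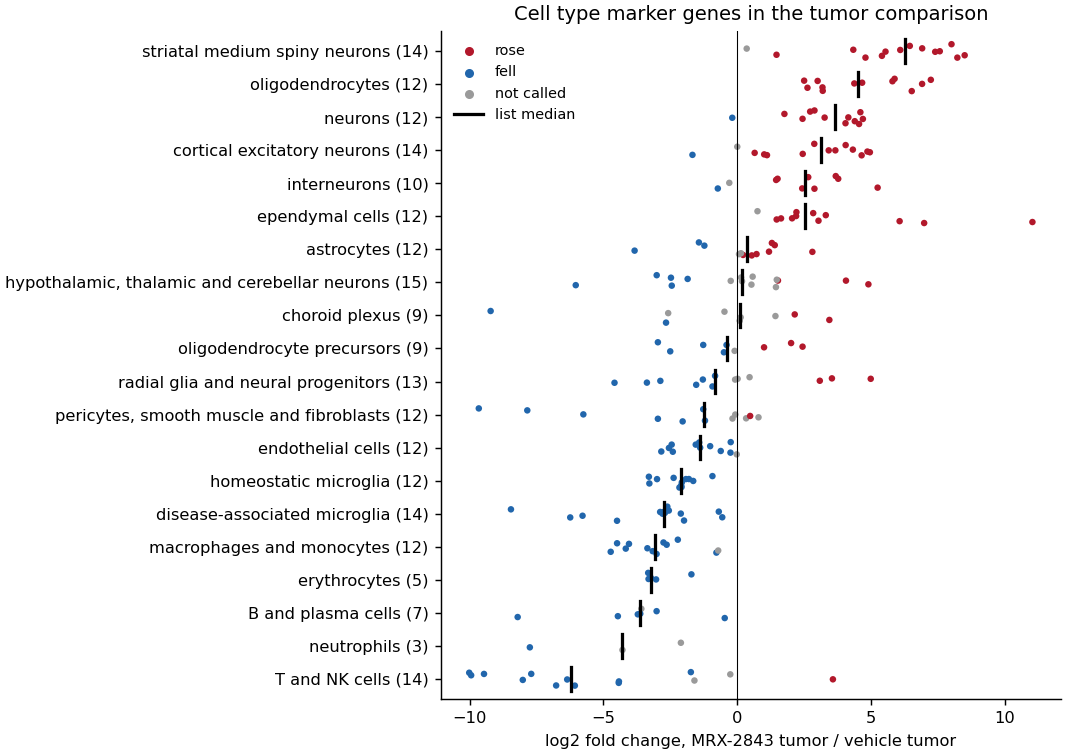
Log2 fold change of MRX-2843 tumor over vehicle tumor for the tested members of 20 lists of cell type markers, ordered by median. Each point is 1 gene, red where it rose, blue where it fell and grey where it was not called; the black bar is the list's median and the number tested is in brackets.

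Some of the difference was also present between treatments in naive brain. There 5225 genes (21.5%) were called. Both tissues called 4486 genes, 30.5% of the tumor calls and 85.9% of the naive calls, 2065 in the same and 2421 in opposite directions. The interaction was called for 12563 genes (51.6%), and with the sign of the tumor difference for 11566 of the 14715 tumor calls (78.6%). Erythrocyte genes fell in both tissues, 5 of 5 in tumor (median -3.22) and 5 of 5 in naive brain (median -3.69). Hba-a1 had 178 and 176 CPM in the vehicle tumor libraries, 16.4 and 18.8 in MRX-2843 tumor and naive means of 302 and 23.5. Hba-a1 and Hba-a2 are near-identical copies, and how their reads were split is uncertain. The sex-linked genes also parted by treatment: Xist, which silences an X chromosome, had 0.867 and 0.408 CPM under vehicle and 795 and 736 in MRX-2843 tumor, and the Y-linked Ddx3y had 70.5 and 76.2 CPM and no counts. Naive means were 2.49 and 529 CPM for Xist, and 33.2 and 0 for Ddx3y.

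Among genes that differed the same way in both tissues, Ecel1, a neuronal peptidase, rose from 0.486 and 0.318 to 17.2 and 17.8 CPM in tumor (5.44 ± 0.16) and by 4.20 ± 0.12 in naive brain. Baiap3, of vesicle exocytosis, rose by 3.41 ± 0.14 and 4.47 ± 0.11. Slc5a7, the choline transporter gene of cholinergic neurons, rose by 5.75 ± 0.48 in tumor and 3.94 ± 0.39 in naive brain. Clic6 and Sh3rf2 are also among the genes that the naming rule picks here.

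Some abundant genes gave no call. The most abundant with an adjusted p above 0.5 included Cfl1, Ptms, Rplp1 and Ywhae. Cfl1, which severs actin, had 468 and 466 CPM under vehicle and 447 and 467 under MRX-2843 (-0.03 ± 0.05, 95% interval -0.13 to 0.07), and the ribosomal stalk gene Rplp1 had 495 and 475 under vehicle and 470.1 and 509 under MRX-2843 (0.01 ± 0.05, 95% interval -0.10 to 0.12). The groups overlapped in both. With library totals Rplp1 turned to -0.21, and Cfl1 was called lower at -0.26.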

How the data were processed

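RNA-seq read counts per gene, as deposited by the authors in whole numbers and not normalized, were analysed for 8 libraries in 4 groups of 2. The submitters' processing notes name STAR 2.7.7a, SAMtools, featureCounts, Subread, hg38 and mm10, with no role or order; annotation, strand setting and trimming are not given in the sources used here. Without a stated strand setting, reads of overlapping and antisense genes cannot be told apart. Gene coordinates are of GENCODE M21 on GRCm38, whose gene identifiers, without version, matched 94.1% of the table's.

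The quasi-likelihood test of edgeR 4.0.16 (R 4.3.3) was applied to all 4 groups after filterByExpr at a minimum count of 10 and TMM scaling. It had 4 residual degrees of freedom and a common coefficient of biological variation of 21%, with Benjamini-Hochberg adjustment over all genes tested, called under 0.05. Each standard error (SE, after ± in the text) is the size of the log2 fold change divided by the root of its F statistic. The libraries held 51150569 to 112938462 counts each. A count of 0 allows up to 3 counts, or 0.034 to 0.0528 CPM in a tumor library, counting error only. The 2 libraries of each group differed by more than sampling noise (chi-square per degree of freedom 9.23 to 18.8) and were kept as 2. Fold bounds set a group with no counts at 3 counts in all.

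Genes were named by a rule: the 10 largest rises and falls by fold and by CPM (called, at least 20 CPM in the higher group, no overlap, not on X, Y or the mitochondrial genome), up to 3 members of each list by adjusted p and 2 against its direction, the TAM and fusion genes, Xist and Ddx3y, 6 genes called in both tissues in each pattern, and the 5 most abundant uncalled. A few genes that the rule picks are not reported here. Other list members named were chosen after their values were seen. The comparison, its members and the 51 lists were chosen with earlier results of these data known, and lists are described by counts and medians without a test. Alternatives were DESeq2's size factors, DESeq2 1.42.0 as the test, library totals, no or a stricter filter, tumor libraries alone, a replicate block, a minimum fold change, no sex-linked or mitochondrial genes, and each library left out. Tables and plots were made with Python 3.11.15, pandas 2.3.3, NumPy 2.4.6 and matplotlib 3.10.9.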

Additional observations from a re-analysis of the deposited data

Results flagged for a closer look

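The difference between the treatment groups was not the same in tumor and in naive brain for 12563 genes. These had an adjusted p under 0.05 in the interaction term of edgeR's quasi-likelihood test. What part the treatment, the source animals or the tissue sampled had in this was not tested. Among genes called in opposite directions in the tissues, the naming rule picks 6. Dlk1, an imprinted gene of progenitor cells, had an interaction of -16.37: it fell from 4897 and 4903 to 2.64 and 3.12 CPM in tumor and stood at means of 1.05 and 52.5 in vehicle and MRX-2843 naive brain. Gbx1, a homeobox gene, had -10.37, falling from 24.3 and 24.6 to 0.563 and 0.708 CPM in tumor, with means of 0.309 and 10.7 in naive brain. Neurod6, of cortical neurons, rose from 0.532 and 0.794 to 17.5 and 16 CPM in tumor and was lower under MRX-2843 in naive brain, 39 against 2.59 (interaction 8.55). Hkdc1 (8.63), Prss12 (8.196) and Smim43 (10.42) had the same pattern as Neurod6.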

How the results depend on the processing

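Across 18 alternative settings the counts of called genes changed by more than 1.5 times in 1, the minimum log2 fold change of 1. It gave 9706 tumor calls in place of 14715, 4464 of them lower in place of 7265, and 1389 naive calls in place of 5225 (687 higher in place of 2383, 702 lower in place of 2842). Leaving out 1 library gave 13389 to 14767 tumor calls, 13076 to 14509 of them among the 14715, and 11582 to 12064 interaction calls. The replicate numbers do not pair the libraries, since deviations of same-numbered libraries correlated at -0.071 to 0.024; with a replicate block 14226 genes were called in tumor (7149 higher, 7077 lower). Library totals gave 6412 higher and 8647 lower.

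Of 218 genes that the rule names and that are reported, 214 were called. Over 3915 values of them under alternatives, 3861 kept direction and call, 42 kept direction and lost the call, 1 gained it and 11 turned. Library totals turned Ptms (-0.20), Rplp1 (-0.21), Ywhae (-0.21), Cd47 (-0.017) and Sirpa (-0.064). With 1 tumor library left out, 3 uncalled genes took both signs: Ptms ran from -0.14 to 0.15, Rplp1 from -0.0668 to 0.0665 and Ywhae from -0.0176 to 0.0431. Of genes that lost a call, 16 lost it only under the minimum fold change, and 8 elsewhere: Abcc9, Flt3, Mertk, Mmp12, Rbfox3, S100a8, Sesn1 and Sirpa. Cd47 lost its call with the turn. With 2 libraries a group that may share an animal, the tests bound the spread between these libraries only. Leaving 1 library in a group assumes that it varies like the others.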

Other observations

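Runs of neighbouring genes changed together in both directions. They were found by ranking runs of 15 protein-coding genes by median, after the values were seen, and have no test. Only genes with a mean of at least 1 CPM in the higher tumor group entered, so other tested genes between them were passed over. On chromosome 1, 173331886 to 174031810 (GRCm38), 13 of 15 genes fell, with a median of -7.74. They include Aim2 and the Ifi200 family, sensors of DNA. Ifi204 fell from 77.1 and 81.7 to 0.492 and 0.253 CPM (-7.74 ± 0.22), and Ifi206 had 7.57 and 8.77 CPM and Ifi214 12.8 and 12.7 in vehicle tumor, with no counts of either in MRX-2843 tumor or naive brain. Near-identical copies in this family make the split of reads between its members uncertain. On chromosome 7, 102441695 to 104507849, 13 of 15 genes fell (median -3.64), among them antiviral Trim genes: Trim30a went from 216 and 228 to 5.08 and 3.46 CPM (-5.70 ± 0.23). On chromosome 12, 103321142 to 104473330, 10 of 15 fell, among them Serpina3n, an acute phase protease inhibitor of reactive astrocytes, from 2024 and 2019 to 10.5 and 10.1 CPM (-7.61 ± 0.08). On chromosome 6, 128778485 to 131293244, 13 of 15 genes fell and 1 rose (median -4.03). This run holds natural killer receptor genes among others of different function, and Klrb1b, a receptor of natural killer cells, went from 4.07 and 5.37 CPM to no counts.

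Other runs rose. On chromosome X, 134971372 to 136215513, 13 of 15 genes rose and 2 fell (median 2.82), among them Bex2 from 6.61 and 4.89 to 120.3 and 125 CPM (4.42 ± 0.10) and Tceal5 from 5.39 and 3.86 to 46.7 and 46.4 (3.33 ± 0.13). On chromosome 7, 56050196 to 64340806, 10 of 15 rose and 1 fell (median 3.03). On chromosome 4, 41966058 to 42656005, 12 of 15 rose and 2 fell (median 3.30), and on chromosome 14, 5501674 to 8056763, 12 of 15 rose and 1 fell (median 2.11). Both hold near-identical gene copies, so that the split of reads between those is uncertain.

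Around Ccnd1 on chromosome 7 genes moved unequally. Fgf3 (144838083 to 144844436) went from 269 and 273 to 2.18 and 1.48 CPM (-7.21 ± 0.18) and Mrgprf (145300828 to 145309557) from 13.1 and 13.6 to 0.0703 and 0.236 (-6.42 ± 0.45). Between them, LTO1 changed by -0.96 ± 0.13; it overlaps Ccnd1, and the split of reads between them is uncertain. Tpcn2, also between them, fell (-1.77 ± 0.17). On the far side of Fgf3, Ano1 (-1.62 ± 0.25) and Fadd (-2.54 ± 0.27) fell, Ppfia1 (0.21 ± 0.08) and Cttn (-0.49 ± 0.06) changed by less than 1 log2 unit, and Shank2 rose by 4.89 ± 0.11.

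Imprinted genes went both ways. Dlk1 fell from 4897 and 4903 to 2.64 and 3.12 CPM, while Meg3, the noncoding RNA of the same locus read from the other parental allele, rose from 1088 and 1072 to 4793 and 4786. H19 fell from 1301 and 1301 to 1.78 and 0.776 CPM and its neighbour Igf2 from 191 and 196 to 0.211 and 0.472. Snrpn rose from 11.9 and 11.6 to 169.7 and 158 CPM, Ndn from 9.94 and 12.1 to 141 and 138 and Peg3 from 75.4 and 84 to 374 and 353.

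Antibody genes were higher in vehicle tumor. Of 36 immunoglobulin V genes tested 30 fell and 1 rose, and of 9 constant genes 7 fell. Igha, the IgA heavy chain, went from 87.3 and 90.8 to 0.422 and 0.101 CPM and Igkc, the kappa chain, from 65.7 and 66 to 0.387 and 0.287. The constant gene Ighm fell by less (-0.47 ± 0.11). Of 1407 lincRNA genes tested 438 rose (31.1%) and 121 fell (8.6%), against 34.8% and 38.3% of 16795 protein-coding genes. Of 2278 processed pseudogenes 134 rose (5.88%) and 350 fell (15.4%), both less often than the 30.6% and 29.8% of all genes tested.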
